A study of Mus musculus with 6 samples.

Results

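The genes described here are heat shock genes and the gene of their main transcription factor, a list of 10 chosen by name: Hspa1a, Hspa1b, Hspa8, Hsph1, Dnajb1, Hsp90aa1, Hspb1, Cryab, Hspd1 and Hsf1. They were read from the deposited array values, with 1 probe set kept for each gene symbol, and 8 of the 10 were measured among 19505 genes. Hspa8 and Hsf1 were not among the named probe sets and were not analysed here. RNA came from the hearts of 3 CKD mice and 3 sham mice of the Balb/c strain, 1 Affymetrix Clariom S array per mouse. CKD mice (5/6 nephrectomy) had part of the right renal cortex destroyed by electrocoagulation and lost the left kidney 2 weeks later, while sham mice had only the abdomen opened. The methods describe the operated Balb/c mice as males of 8 weeks, and they list a sham and CKD set kept on normal diet for 8 weeks beside sets kept longer. Neither the methods nor the labels say which set gave the array hearts, or at what time of day they were taken. The labels give no drug, transgene or engineered allele for either group.

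Heat shock proteins are chaperones. Those of the HSP70 and HSP90 families, with their J-domain partners and the HSP110 exchange factors, hold and refold proteins in the cytosol using ATP, the small heat shock proteins bind unfolding proteins without ATP, and HSP60 folds proteins inside mitochondria. Most of these genes are switched on by the transcription factor HSF1, which HSP70 and HSP90 keep inactive until damaged proteins or heat draw the chaperones away. In heart muscle the small proteins αB-crystallin (Cryab) and HSP27 (Hspb1) are abundant and guard the filaments of the sarcomere.

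HSF1 binds the heat shock element, a run of short units in alternating orientation, near the transcript start of many such genes. The promoter windows below, taken from RefSeq on build GRCm38.p6, are shown because they hold letters of this kind. Each window holds 250 bases before and 50 bases from an annotated transcript start. Capitals mark matches to 2 units (GAANNTTC or TTCNNGAA, each its own reverse complement) or to 3 units (GAANNTTCNNGAA or TTCNNGAANNTTC, each the reverse complement of the other, and each holding 2-unit matches inside it). Hsph1 (HSP110) lies on the minus strand at chr5:149636287-149636586, Hspa1a and Hspa1b (the inducible HSP70 pair) on the minus strand at chr17:34972107-34972406 and chr17:34959189-34959488, Hspb1 on the plus strand at chr5:135887669-135887968, Hspd1 (HSP60) on the minus strand at chr1:55087883-55088182, and Chordc1, a co-chaperone of HSP90, on the plus strand at chr9:18292017-18292316.
Hsph1: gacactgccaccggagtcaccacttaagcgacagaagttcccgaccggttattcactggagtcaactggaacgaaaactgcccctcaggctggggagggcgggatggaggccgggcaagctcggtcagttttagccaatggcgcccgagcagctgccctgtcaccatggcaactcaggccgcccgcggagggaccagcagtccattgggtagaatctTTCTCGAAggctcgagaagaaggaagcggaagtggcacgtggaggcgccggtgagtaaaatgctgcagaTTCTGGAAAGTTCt
Hspa1a: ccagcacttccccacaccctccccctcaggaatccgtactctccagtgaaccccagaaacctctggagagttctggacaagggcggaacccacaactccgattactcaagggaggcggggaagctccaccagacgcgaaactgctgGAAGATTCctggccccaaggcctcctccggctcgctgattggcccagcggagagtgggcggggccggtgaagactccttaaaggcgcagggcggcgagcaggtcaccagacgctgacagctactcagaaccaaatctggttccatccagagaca
Hspa1b: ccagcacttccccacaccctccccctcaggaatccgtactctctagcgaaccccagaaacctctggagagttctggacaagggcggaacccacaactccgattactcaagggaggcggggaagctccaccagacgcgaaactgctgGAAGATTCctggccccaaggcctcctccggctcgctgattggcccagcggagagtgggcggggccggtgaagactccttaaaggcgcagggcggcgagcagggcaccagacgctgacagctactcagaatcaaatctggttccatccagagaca
Hspb1: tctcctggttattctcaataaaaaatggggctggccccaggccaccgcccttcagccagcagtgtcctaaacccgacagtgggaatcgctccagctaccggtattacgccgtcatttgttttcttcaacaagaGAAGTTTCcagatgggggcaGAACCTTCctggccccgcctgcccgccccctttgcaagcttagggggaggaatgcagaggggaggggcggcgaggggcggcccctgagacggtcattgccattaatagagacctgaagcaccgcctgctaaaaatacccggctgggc
Hspd1: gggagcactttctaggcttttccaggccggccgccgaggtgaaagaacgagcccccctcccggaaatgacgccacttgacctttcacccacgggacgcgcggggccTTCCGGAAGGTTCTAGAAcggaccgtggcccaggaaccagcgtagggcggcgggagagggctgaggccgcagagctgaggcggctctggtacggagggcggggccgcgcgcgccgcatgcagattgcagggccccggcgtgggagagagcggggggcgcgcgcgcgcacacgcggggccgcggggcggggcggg
Chordc1: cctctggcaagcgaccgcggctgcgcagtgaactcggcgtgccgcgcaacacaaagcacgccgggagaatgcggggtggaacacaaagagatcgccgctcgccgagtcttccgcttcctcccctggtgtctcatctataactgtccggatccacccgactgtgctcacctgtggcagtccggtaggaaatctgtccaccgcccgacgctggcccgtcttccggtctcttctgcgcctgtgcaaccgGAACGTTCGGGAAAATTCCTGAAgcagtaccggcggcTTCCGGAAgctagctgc

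Of the 8 measured members, 6 had a promoter window in the reference table (not Hsp90aa1 or Cryab), and 5 of these 6 held a 2-unit match in at least 1 window. Hsph1 and Hspd1 also held a 3-unit match. Over all 32851 windows of the same length, 15.1% held a 2-unit match and 0.603% a 3-unit match. These shares are per window, whereas the members are counted by gene, and the 6 had 9 windows in all. Dnajb1, the J-domain partner that feeds clients to HSP70, had no match in its windows, which says only that these letters are not in them. The windows of Hspa1a and Hspa1b matched at 296 of 300 positions, and a single 2-unit match lay at the same place in both (−104 to −97, counted from the first transcribed base as 0). Hspd1 is transcribed back to back with Hspe1, the gene of its HSP10 partner, so that the windows of both genes share 285 bases and the same capital letters. A match is a description of the sequence and no evidence of binding.

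**Figure D1:**
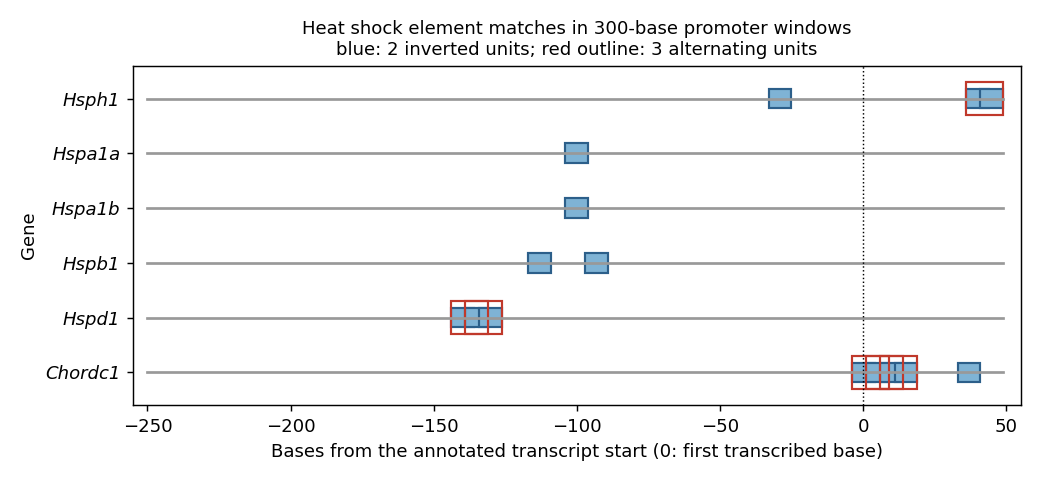
Positions of heat shock element matches in the 300-base windows of 6 genes, in bases from the annotated start (dotted line), with 2-unit matches in blue and 3-unit matches outlined in red. Hspa1a and Hspa1b have 1 match at the same place, Hspb1 has 2 matches before the start, Hspd1 a run before it, and Hsph1 and Chordc1 a run at or after it. Hsph1 has another match before the start, at −33 to −26.

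Levels are log2 values after robust multiarray averaging (RMA) by the authors, so a difference of 1 is 2-fold, and they are compared between hearts and not between genes. Array medians lay between 4.83 and 4.86. Sham hearts 2 and 3 had the highest correlation of any pair (Pearson's r = 0.995 over all genes), while sham heart 1 reached at most 0.988 with any other array. Sham heart 1 also differed from the other sham hearts in genes of atrial muscle and of the Y chromosome, given further on. Counts below use all 6 hearts, and their range with each heart left out in turn, or the hearts that change them, is given with the gene lists. Among 12 genes of heart muscle, the tissue on the label, mean levels were 17.72 to 18.02 in CKD hearts and 17.88 to 17.95 in sham hearts, and none passed the criterion (1 higher without CKD heart 2). In such whole-tissue RNA, fewer cells of a type and less RNA per cell cannot be told apart.

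All 8 measured members had a negative log2 fold change, and 3 of them were called lower in CKD hearts: Hsph1, Hspa1b and Cryab. A gene was called when its fold change was over 1.5 with an unadjusted p under 0.05 from limma, the limits that the methods name. Of all 19505 genes, 3.19% were called lower by this criterion, against 3 of 8 members (37.5%), and 3.13% were called higher, against 0 of 8. The median log2 fold change was −0.65 over the members and −0.003 over all genes, of which 50.7% had a negative value. The standard error had a median of 0.227 over all genes. After Benjamini-Hochberg adjustment over all genes, no member passed at 0.05, where 0.0103% of genes (2 genes, both higher) did. At an unadjusted p under 0.05 without a fold limit the same number of members, 3, passed. The p-values from limma rest on the spread between these 6 mice, moderated with the spread of all genes. Sample labels do not name cages or litters, so effects shared within a cage or litter could not be separated.

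**Figure D2:**
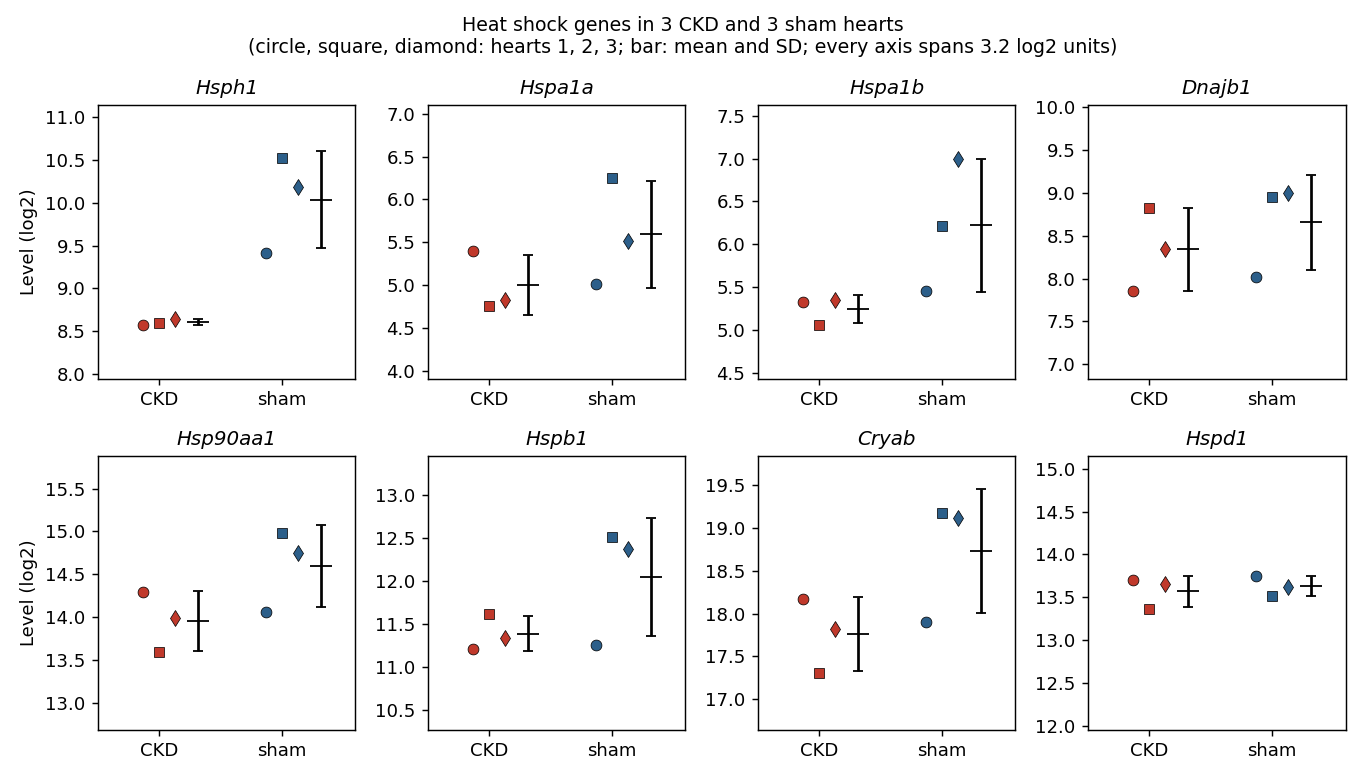
Log2 levels of the 8 measured heat shock genes in CKD hearts (left, red) and sham hearts (right, blue), 1 symbol per heart, with the mean and SD of each group. Sham heart 1 (circle) lies below sham hearts 2 and 3 in 7 of the 8 panels, and the 3 CKD hearts lie below sham hearts 2 and 3 in the same 7.

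Hsph1 encodes HSP110, which exchanges nucleotide on HSP70 and helps it pull apart aggregates. Its log2 level was 8.57, 8.60 and 8.64 in CKD hearts, against 9.41, 10.52 and 10.18 in sham hearts. All 3 CKD hearts lay below all 3 sham hearts, and the CKD hearts were close together while the sham hearts were spread. The mean was 8.60 ± 0.04 in CKD and 10.04 ± 0.57 in sham hearts (SD, n = 3 each). Relative to sham, Hsph1 changed by −1.43 on the log2 scale (standard error 0.28, 95% confidence interval −2.06 to −0.81, unadjusted p = 0.000575, adjusted p = 0.330 from limma), a 2.70-fold lower level. Hsph1 kept the criterion with each heart left out in turn, at −1.75 to −1.19, and in every other alternative fit. When the criterion was replaced by an adjusted p under 0.05, Hsph1 did not pass (adjusted p = 0.330 from limma). The separation of the 3 hearts from the other 3 has p = 0.1 in a two-sided exact permutation test, the smallest that 3 against 3 allows, and 6.71% of all genes had every CKD heart below every sham heart.

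Hspa1a and Hspa1b encode nearly identical inducible HSP70 proteins, so their probe sets may share signal and the assignment of either value to 1 gene is uncertain. Hspa1b was at 5.33, 5.06 and 5.35 in CKD hearts and at 5.45, 6.21 and 7.0 in sham hearts. The groups did not overlap, although sham heart 1 stood just above the highest CKD heart. Hspa1b changed by −0.97 on the log2 scale (SE of 0.35, adjusted p = 0.453 from limma), a 1.96-fold lower level, and the call was lost without CKD heart 2 (−0.88, unadjusted p = 0.0611 from limma) or sham heart 3 (−0.58, unadjusted p = 0.0749). Hspa1a was at 5.40, 4.76 and 4.83 in CKD hearts and at 5.01, 6.25 and 5.51 in sham hearts. These ranges overlapped through CKD heart 1 and sham heart 1, and the log2 fold change of −0.59 (95% confidence interval −1.32 to 0.14, adjusted p = 0.638 from limma) did not pass. In CKD hearts both genes lay near the array medians of 4.83 to 4.86, and no detection calls were used to tell them from background.

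Dnajb1 and Hsp90aa1 work beside HSP70 in the cytosol. Dnajb1 (HSP40) was at 7.86, 8.82 and 8.34 in CKD hearts and at 8.02, 8.95 and 9.0 in sham hearts. CKD hearts 1 to 3 were widely spread and sham heart 1 lay among them, and the log2 fold change was −0.32 (95% confidence interval −1.06 to 0.43, adjusted p = 0.833 from limma). Hsp90aa1, the inducible form of cytosolic HSP90, was at 14.29, 13.59 and 13.99 in CKD hearts and at 14.06, 14.98 and 14.75 in sham hearts. Only sham heart 1 fell within the CKD range, and the log2 fold change was −0.64 (95% confidence interval −1.28 to 0.003, unadjusted p = 0.0509, adjusted p = 0.548 from limma). It passed the criterion without sham heart 1 (−0.91) or CKD heart 1 (−0.81).

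The small heat shock proteins Cryab and Hspb1 were both highest in sham hearts 2 and 3. Cryab was at 18.17, 17.31 and 17.82 in CKD hearts and at 17.90, 19.18 and 19.12 in sham hearts. Sham heart 1 lay within the CKD range, and sham hearts 2 and 3 were near the top of the scale (array maxima of 19.91 to 20), where differences can be compressed. Cryab changed by −0.97 on the log2 scale (SE of 0.37, adjusted p = 0.467 from limma), a 1.95-fold lower level. The call was lost without CKD heart 2 (−0.74), CKD heart 3 (−0.99), sham heart 2 (−0.74) or sham heart 3 (−0.77). Hspb1 was at 11.21, 11.61 and 11.33 in CKD hearts and at 11.25, 12.52 and 12.37 in sham hearts, with sham heart 1 again inside the CKD range. Its log2 fold change was −0.66 (95% confidence interval −1.40 to 0.07, adjusted p = 0.591 from limma), and it passed without sham heart 1 (−1.06, unadjusted p = 0.00129 from limma).

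Hspd1, the mitochondrial chaperonin HSP60, was at 13.70, 13.36 and 13.65 in CKD hearts and at 13.75, 13.52 and 13.62 in sham hearts. The groups overlapped almost fully, and the log2 fold change was −0.06 (95% confidence interval −0.49 to 0.37, adjusted p = 0.956 from limma). Its sign turned to 0.045 without CKD heart 2. Hspe1, its partner HSP10 from the shared promoter region, was at 11.43, 11.71 and 11.38 in CKD hearts and at 11.91, 11.98 and 12.12 in sham hearts. All CKD hearts were below all sham hearts for Hspe1, whose log2 fold change of −0.50 (adjusted p = 0.468 from limma) missed the fold limit and passed it without CKD heart 2 (−0.60). Hspe1 was singled out after its values were seen.

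Without sham heart 1, 6 of the 8 members were called lower (Hsph1, Hspa1a, Hspa1b, Hsp90aa1, Hspb1 and Cryab), where 4.91% of all genes were, and their median log2 fold change was −0.98. Without CKD heart 1 it was 5 of 8, where 4.85% of all genes were. It was 1, Hsph1, without CKD heart 2 (3.60% of all genes) or sham heart 3 (2.55%), and 2 without CKD heart 3 (2.80%) or sham heart 2 (2.71%). In 7 of the 8 members (all but Hspd1) every CKD heart lay below sham hearts 2 and 3, as in 13.8% of all genes. In the same 7, sham heart 1 lay below the other sham hearts, as in 37.8% of all genes. In 5 members (Hspa1a, Dnajb1, Hsp90aa1, Hspb1 and Cryab) sham heart 1 lay within the CKD range, as in 50.4% of all genes.

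**Figure D3:**
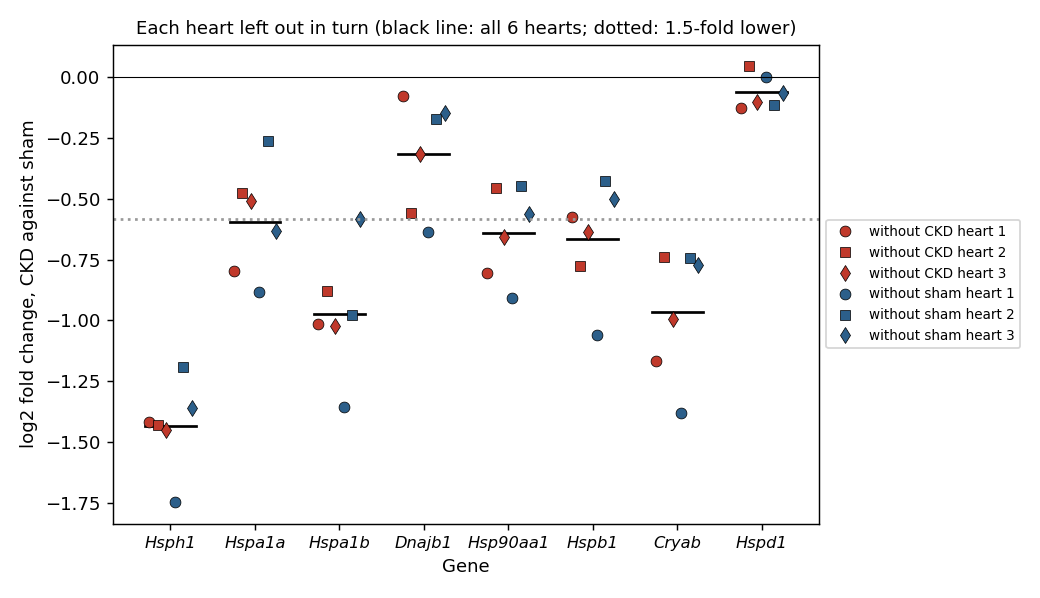
Log2 fold change of each measured heat shock gene, CKD against sham, with each heart left out in turn (symbols) and with all 6 hearts (black line). Leaving out sham heart 1 gave the most negative value in all genes but Hspd1, and Hsph1 stayed between −1.75 and −1.19.

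The profile of the 5 measured cytosolic chaperones (Hspa1a, Hspa1b, Hsph1, Dnajb1 and Hsp90aa1), as the mean of their levels after each gene was centred, was −0.33, −0.46 and −0.39 in CKD hearts and −0.23, 0.76 and 0.66 in sham hearts. Across these 6 arrays its Pearson correlation was 0.95 for Cryab and 0.94 for Hspb1, which were not part of it, and −0.07 for Hspd1. The 8 other genes most like it among all genes were Mif, Eif5a, Pcgf3, Hmox1, Rpsa, Trmt112, Dcbld1 and Pter, with r of 0.991 to 0.998. The 4 most opposite were Dpp4, Zfp955b, Pms1 and Atp2a3, with r of −0.994 to −0.991. Mif, the most alike, was at 9.40, 9.20 and 9.35 in CKD hearts and at 9.5, 10.57 and 10.38 in sham hearts. Hmox1, the inducible haem oxygenase, was at 7.56, 7.45 and 7.43 in CKD hearts and at 7.57, 9.0 and 8.69 in sham hearts. In each of these genes sham hearts 2 and 3 stood on one side and the other 4 hearts on the other. With 6 points chosen from 19505 genes, these correlations are descriptions and share the arrays' own differences.

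Other measured genes of the heat shock and chaperone pathway numbered 118, from lists of 126. Of these, 12 were called lower, 5 higher and 101 in neither direction, with a median log2 fold change of −0.02. The 12 lower genes are 10.2% of the 118, where 3.19% of all genes were called lower and 3.13% higher. Textbook targets of HSF1 had a median of −0.45, with 6 of 29 lower and none higher, and the 21 that are not members had a median of −0.28, with 3 lower: Serpinh1, Ahsa2 and Chordc1. Ahsa2, from the family of activators of the HSP90 ATPase, was at 8.59, 9.17 and 9.18 in CKD hearts and at 10.01, 10.03 and 10.19 in sham hearts. All 3 sham hearts were alike here, and the change of −1.10 on the log2 scale (SE of 0.22, adjusted p = 0.330 from limma) stayed between −1.20 and −0.90 with each heart left out. Chordc1 was at 9.26, 10.43 and 10.03 in CKD hearts and at 10.58, 10.69 and 10.55 in sham hearts. Its groups did not overlap, but its call (−0.70, adjusted p = 0.503 from limma) was lost without any 1 of CKD heart 1, CKD heart 3 or the sham hearts (values of −0.76 to −0.38). Serpinh1, the collagen chaperone of the endoplasmic reticulum (ER), had a log2 fold change of −1.44 (adjusted p = 0.336 from limma), between −1.83 and −1.03 with each heart left out.

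Among other partners of HSP90, Unc45b, the myosin chaperone of striated muscle (−0.74), and Tsc1 (−0.64), described as an HSP90 co-chaperone in human cells, were lower. With Ahsa2 and Chordc1 this makes 4 of 22, where 3.19% of all genes were called lower. Tsc1 missed the fold limit without CKD heart 3 (−0.58). Stip1, which passes clients between HSP70 and HSP90, was at −0.48 and passed without sham heart 1 (−0.69). Of 8 relatives of HSP70 and HSP110, Hspa13 was lower (−0.60), a call lost without CKD heart 1 (−0.39), CKD heart 3 (−0.63), sham heart 1 (−0.50) or sham heart 2 (−0.59), with array weights (−0.50), with the methods' t-test, and with the replicate number as a block (unadjusted p = 0.0584 from limma). Of 10 exchange factors and co-chaperones of HSP70 none passed with all 6 hearts and 1, Bag3, passed without sham heart 1, with Bag2 at 0.26 and Bag1 at 0.22 having the smallest p. Bag3, which couples HSP70 to small heat shock proteins in muscle, was at 11.10, 10.67 and 11.05 in CKD hearts and at 10.29, 12.04 and 11.97 in sham hearts. Sham heart 1 was the lowest of all 6 hearts, and the log2 fold change of Bag3 was −0.49 with it and −1.06 without it.

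The small heat shock proteins outside the members were led by Hspb6 (HSP20), a small heat shock protein of muscle. Hspb6 was at 17.21, 16.73 and 17.04 in CKD hearts and at 17.90, 18.36 and 18.50 in sham hearts. The groups did not overlap, and the change of −1.26 on the log2 scale (SE of 0.23, adjusted p = 0.285 from limma), a 2.39-fold lower level, stayed between −1.44 and −1.13 with each heart left out. Hspb3 was also lower (−0.59), a call lost without CKD heart 3 (−0.49), sham heart 2 (−0.48) or sham heart 3 (−0.51). Hspb6 and Hspb3 make 2 of 8 called lower, where 3.19% of all genes were. The other 6 of 8 did not pass, and Hspb8, the partner of Bag3, was at −0.78 and passed without sham heart 1 (−1.11) or CKD heart 1 (−1.11).

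Of 20 other J-domain proteins outside mitochondria, 3 were higher and none was lower, where 3.13% of all genes were called higher and 3.19% lower. Dnajc9, a histone chaperone (0.74), Dnajc7, which binds HSP70 and HSP90 (0.67), and Dnaja4 (0.60) were higher. The call was lost for Dnajc9 without CKD heart 1 (0.52) or sham heart 1 (0.62), with array weights (0.50) and with the methods' t-test, for Dnajc7 without CKD heart 2 (0.53) or sham heart 2 (0.57), and for Dnaja4 without CKD heart 1 (0.48), sham heart 2 (0.51) or sham heart 3 (0.56). Among 14 subunits of the chaperonin TRiC and of prefoldin, which fold actin and tubulin, Cct3 (−0.80) and Cct5 (−0.61) were lower and the prefoldin subunit Pfdn6 (0.75) was higher. Cct5 missed the fold limit without CKD heart 3 (−0.50). Tcp1 was at −0.57 and passed without CKD heart 2 (−0.62), CKD heart 3 (−0.67) or sham heart 1 (−0.69). Of 20 mitochondrial chaperones and proteases, Clpp, the protease of the matrix (−0.88), and Clpb, a disaggregase of the intermembrane space (−0.75), were lower and none was higher, with a median of 0.003.

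Of 12 heat shock factors and regulators other than Hsf1, only Sirt1, a deacetylase that acts on HSF1, was called, as higher (0.60, adjusted p = 0.536 from limma). That call was lost without any 1 of CKD heart 2 (0.33), CKD heart 3 (0.65) or the sham hearts (0.56 to 0.66). Hsf2, which can pair with HSF1, was at 8.68, 9.25 and 9.05 in CKD hearts and at 8.94, 9.34 and 8.91 in sham hearts. The groups overlapped, and its log2 fold change of −0.07 turned to 0.087 without CKD heart 1 and to 0.068 without sham heart 2. Hsf4 had a log2 fold change of −0.12, which turned to 0.092 without CKD heart 3 and to 0.17 without sham heart 3. With each heart left out in turn, lower calls numbered 2 to 6 among the 21 textbook targets outside the members, 2 to 5 among partners of HSP90, 1 to 3 among small heat shock proteins, 2 to 3 among both the mitochondrial and the TRiC and prefoldin lists, and 0 to 1 among relatives of HSP70 and among J-domain proteins. Higher calls numbered 1 to 3 among J-domain proteins, 1 to 2 in the TRiC and prefoldin list, 0 to 2 in the mitochondrial list, and 0 to 1 among partners of HSP90, relatives of HSP70 and the regulators.

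**Figure D4:**
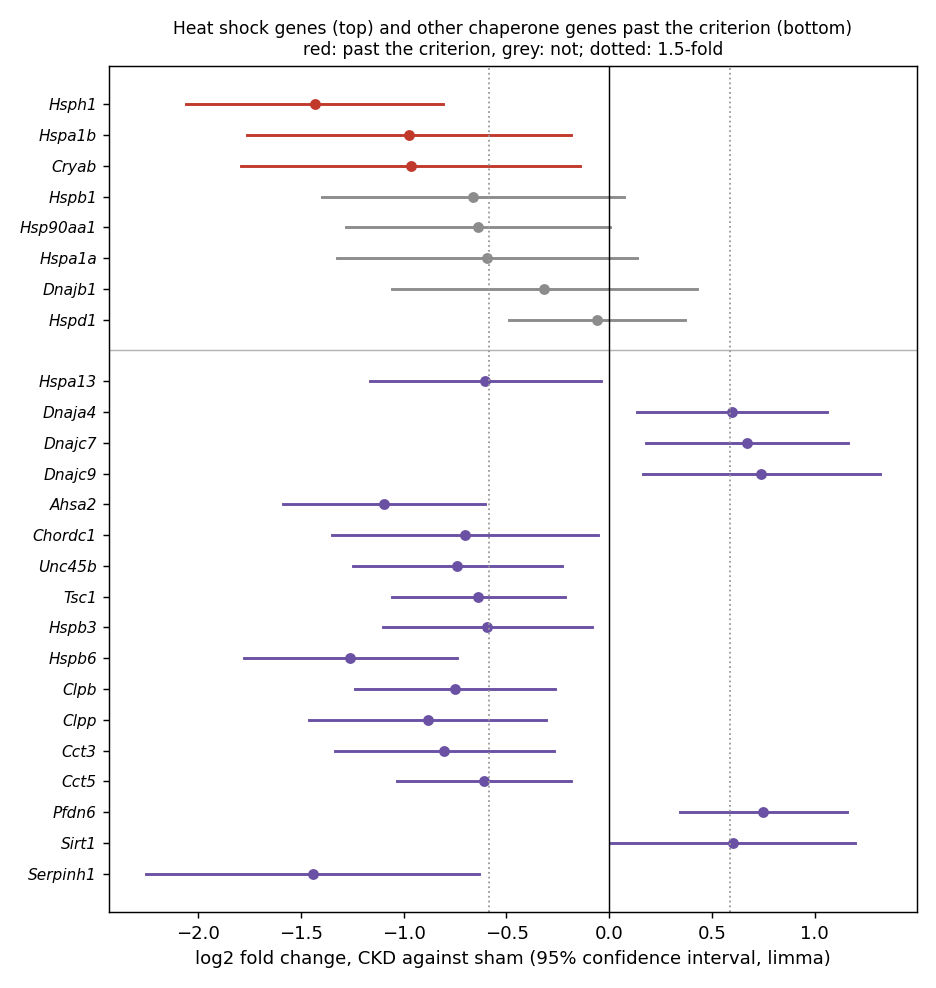
Log2 fold change, CKD against sham, with 95% confidence intervals from limma, for the 8 measured heat shock genes (top, red where past the criterion and grey where not) and the 17 other pathway genes past the criterion (bottom, purple). Members lie between −1.43 and −0.06, and of the 17 others 12 are lower and 5 higher.

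Other genes also differed between the groups of hearts, in either direction, and their part in the result was not tested. The cold-inducible RNA-binding proteins Rbm3 and Cirbp, which rise when body temperature falls, were higher in CKD hearts. Rbm3 was at 15.45, 16.05 and 15.83 in CKD hearts and at 14.07, 12.40 and 12.38 in sham hearts (log2 fold change 2.83, adjusted p = 0.201 from limma). Cirbp was at 8.18, 8.87 and 9.32 in CKD hearts and at 6.97, 6.29 and 6.44 in sham hearts (2.22, adjusted p = 0.166 from limma). Both separated the groups, as 6.93% of all genes did with CKD above sham, and in both sham heart 1 was the sham heart nearest to CKD. Of 17 clock genes, which drive daily cycles of body temperature and transcription, 6 were higher and 3 lower (6 to 8 and 2 to 3 with each heart left out). Of all genes, 3.13% were called higher and 3.19% lower with all 6 hearts.

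**Figure D5:**
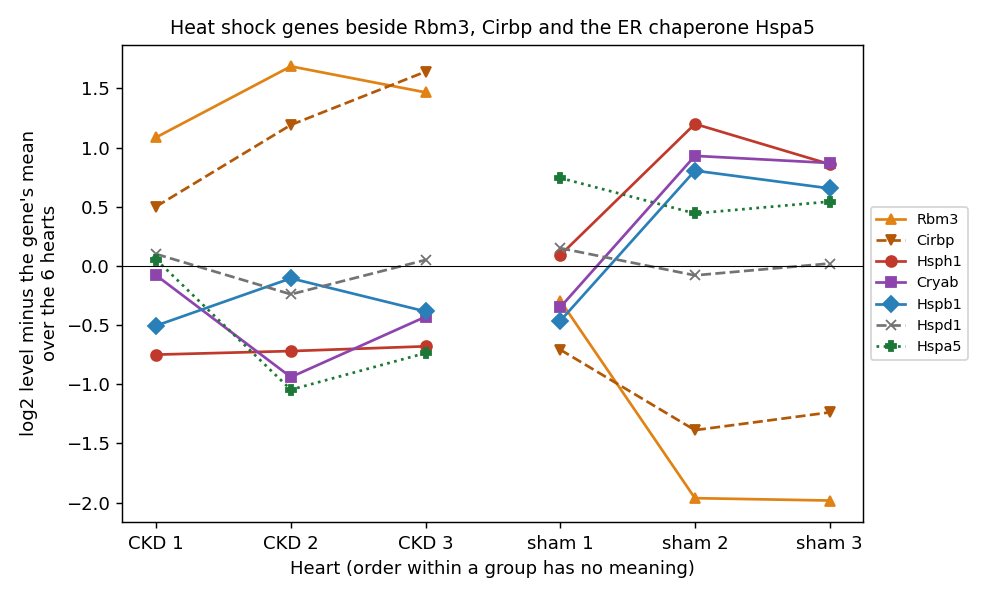
Log2 level minus the gene's mean over the 6 hearts, for 4 heat shock genes, Rbm3, Cirbp and Hspa5, with CKD hearts left of sham hearts. Hsph1, Cryab and Hspb1 are highest in sham hearts 2 and 3, where Rbm3 and Cirbp are lowest, whereas Hspa5 is alike in all 3 sham hearts and Hspd1 varies little.

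ER chaperones, which answer to the unfolded protein response, had 6 of 13 genes lower and none higher, with a median of −0.74. Over all genes, 3.19% were called lower and 3.13% higher with all 6 hearts. The share called lower was 2.55% to 4.91% with each heart left out (4.85% without CKD heart 1). The 6 became 3 without CKD heart 2, CKD heart 3 or sham heart 3, 4 without sham heart 2 and 9 without CKD heart 1. Without CKD heart 1, Dnajc10 was called higher. Hspa5 (BiP), the HSP70 of the ER, was at 18.11, 17.01 and 17.32 in CKD hearts and at 18.80, 18.50 and 18.60 in sham hearts (−1.15, adjusted p = 0.336 from limma). Here sham heart 1 was the highest and not the lowest sham heart. Hsp90b1, the HSP90 of the ER, had a log2 fold change of −0.91, and both genes stayed called with each heart left out. Pdia6 (−0.85), Sdf2l1 (−0.75) and Creld2 (−0.74) were also lower, and Serpinh1 is the sixth gene of this count. Creld2 and Sdf2l1 each lost the call without CKD heart 2, CKD heart 3, sham heart 2 or sham heart 3 and under the replicate block (unadjusted p = 0.0727 and 0.0645 from limma). Pdia6 lost it without CKD heart 2, CKD heart 3 or sham heart 3, and all 3 lost it with the methods' t-test.

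Markers of other cell types also differed between the hearts, and their part in the levels of the heat shock genes was not tested. Beside the counts in this paragraph, 3.13% of all genes were called higher and 3.19% lower with all 6 hearts. The share called lower was 2.55% to 4.91% with each heart left out. Macrophage markers had 3 of 9 lower and none higher (7 lower without sham heart 1, 1 without CKD heart 2 or sham heart 2), with mean levels of 8.37 to 9.47 in CKD hearts and 8.72 to 10.1 in sham hearts, sham heart 1 being the lowest of the sham hearts. Atrial markers had 4 of 8 higher and none lower (6 higher without CKD heart 1, 2 without CKD heart 3, sham heart 2 or sham heart 3). The atrial marker Nppa, at −0.52 with all 6 hearts, was called lower without CKD heart 3. Mean levels of the atrial markers were 8.53 to 11.6 in CKD hearts and 6.23 to 8.99 in sham hearts, sham heart 1 being the highest of the sham hearts. The Y-linked gene Eif2s3y was at 4.02, 4.04 and 7.90 in CKD hearts and at 4.24, 1.24 and 1.26 in sham hearts, although all mice are described as male. None of 8 fibroblast, 8 endothelial, 12 adipocyte or 10 skeletal muscle markers passed with all 6 hearts, and 1 to 3 of a list did when some single hearts were left out. Smooth muscle markers had 2 of 9 higher, lymphocyte markers 1 of 9 and red blood cell markers 1 of 2, which became 1 to 4, 1 to 2 and 0 to 2 with each heart left out. Of 20 immediate early genes, which respond within minutes to stress, 5 were lower and none was higher (3 lower without CKD heart 3, 8 without sham heart 1).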

How the data were processed

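Hearts of 3 CKD and 3 sham Balb/c mice were profiled on Affymetrix Clariom S arrays from 250 ng of total RNA each. The authors deposited log2 levels after RMA (no version is given), which corrects background, gives all arrays a common distribution and summarises each probe set. No detection calls, raw signals or batch labels were used, so signal near background, saturation and batch were not assessed. Of 22206 probe sets, 19572 carried 1 symbol in the platform annotation, 2634 carried none and 0 carried several. Where a gene had more than 1 probe set (55 genes), the brightest represented it, leaving 19505 genes, all of whose Entrez identifiers were in the mouse reference table.

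For each gene a linear model with group as its only term was fitted over all 6 arrays and moderated (lmFit and eBayes, limma 3.58.1, R 4.3.3). Calls took the methods' limits (1.5-fold, unadjusted p of 0.05), and adjusted p-values are Benjamini-Hochberg over all genes. The fit was tested on simulated data first. The named genes are the members, up to 6 called genes of each pathway list or else the 2 of smallest p, Rbm3 and Cirbp, and the genes whose profile was most alike or opposite. Hspe1, Hspb8, Bag3, Stip1, Tcp1, Hsf2, Hsf4 and Eif2s3y were named after their values were seen. The members and lists were chosen with earlier results of these data known, and the lists were written from general knowledge. Promoter windows came from RefSeq (GRCm38.p6), matched by symbol, with 6 of 8 measured members found, and the window with the most matches was shown for genes with more than 1. The fit was repeated with each array left out, with a block for replicate number, with array weights, with a trended and robust prior, with quantile, cyclic loess or median scaling, without the dimmest 25% or 50% of genes, and with probe sets averaged. The methods' t-test and other call limits were also tried. Calls in the other gene and marker lists with each heart left out were added after seeing the data. No set test was run. Figures were drawn with matplotlib 3.10.9.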

Additional observations from a re-analysis of the deposited data

How the results depend on the processing

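The median log2 fold change of the members kept its sign in every alternative run, between −0.44 (without sham heart 2) and −0.98 (without sham heart 1). The number of members called lower, 3, was 1 with the methods' t-test (Hsph1), 6 with array weights, 0 at an adjusted p under 0.05, 1 at a fold over 2, and 1 to 6 with each heart left out. Pathway genes called higher, 5, were 3 with the methods' t-test, 0 at an adjusted p under 0.05, 0 at a fold over 2, and 3 to 8 with each heart left out, and those called lower, 12, were 0 at an adjusted p under 0.05, 3 at a fold over 2, and 8 to 16 with each heart left out. Over all genes, 610 higher and 623 lower calls became 307 and 318 with the methods' t-test, 1023 and 1028 with array weights, 2 and 0 at an adjusted p under 0.05 (885 and 898 at an unadjusted p under 0.05 from limma), 158 and 128 at a fold over 2, and 472 to 1091 and 497 to 957 with each heart left out.

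Single genes that turned were Hspd1 (−0.125 to 0.045 with each heart left out, positive without CKD heart 2), Hsf2 (−0.198 to 0.0867, positive without CKD heart 1 or sham heart 2 at 0.0683) and Hsf4 (−0.313 to 0.172, positive without sham heart 3 or CKD heart 3 at 0.0917). Among members, Hspa1b and Cryab lost the call with the methods' t-test, Hsp90aa1 gained it with eBayes trend and robust options, and Hsp90aa1, Hspa1a and Hspb1 gained it with array weights. Applying quantile normalization, cyclic loess or median centring changed no call of a member, and nor did leaving out dim genes. The cause of these changes was not tested beyond the heart or the test named.

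Same-numbered CKD and sham arrays did not deviate together (correlations of −0.18, −0.03 and −0.19 across genes). With 3 arrays per group, deviations from the group mean are tied to each other. The correlations therefore cannot decide whether the numbers pair the mice. A figure legend of the paper speaks of pairs of sham and CKD mice, without saying how they were paired. With the replicate number as a block, 4 members were called lower, Hspb1 in addition, the median of the members stayed at −0.65, pathway genes gave 5 higher and 11 lower calls (Hspa13 lost its call), and all genes 602 and 599.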
